A study of Mus musculus with 8 samples.

Results

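The 10 genes described here encode the IFIT proteins Ifit1, Ifit2, Ifit3 and Ifit3b and 6 further proteins of the early antiviral response, Rsad2, Cmpk2, Rtp4, Isg20, Samd9l and Lgals3bp. They were taken by name from a table of 52636 genes and all 10 were found in it. RNAseq was performed on S0 cells of mouse fetal liver at E12.5 in 4 WT libraries and 4 libraries lacking both Vps13a and Vps13c (DKO). S0 cells, the least mature subset of the erythroid sort, were negative for the lineage markers of the gate and for CD71 and Ter119. VPS13A and VPS13C are bridge-like proteins that carry lipids between membranes. The mice were kept on a C57BL/6J background. The Vps13a allele had lost exon 6 in the whole body through a β-actin-Cre transgene, and the Vps13c-/- line came from earlier work. DKO embryos came from crosses in which both parents lacked Vps13c, so that an embryo WT for Vps13c cannot be their littermate, and differences between litters and between genotypes cannot be told apart. The sources do not say whether each library is 1 embryo, and p-values measure only the spread between these libraries.

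Type I interferons bind the receptor IFNAR, which signals through the kinases JAK1 and TYK2. The signal leads to a complex with IRF9 that binds a DNA sequence, the interferon-stimulated response element (ISRE), near the starts of interferon-stimulated genes (ISGs). IFIT proteins bind foreign or unusual RNA and curb its translation, and other effectors act on nucleotides, RNA or membranes.

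The libraries summed to between 42114489 and 50886469 counts in WT and between 36981439 and 42587815 in DKO. Counts of the targeted gene Vps13a were lower in every DKO library (log2 -1.29, edgeR adjusted p = 0.00247), whereas those of Vps13c (log2 0.49, edgeR adjusted p = 0.182) did not check the labels, and DKO names the libraries so labelled. Normalized counts are counts scaled to the mean effective library size of the 8 libraries. The Y-linked gene Ddx3y was at 2911 to 3354 in all 4 WT libraries, at 2516 in DKO replicate 3, and at 9.4 to 41 in the other 3 DKO libraries, so that the WT libraries were male and 3 of 4 DKO libraries were not. Erythroid genes were present in all 8 libraries, with Klf1 at 9622 to 17171 normalized counts. Summed macrophage markers (18 genes) ran from 189 to 278 CPM (counts scaled to a common library size) in WT and from 58.6 to 126 in DKO. Of the 14 tested, 2 were called lower (edgeR adjusted p under 0.05 and log2 fold change below -1), against 2.43% of all genes tested. C1qa, C1qc and Mertk had higher means in DKO. C1qa, C1qb and C1qc were highest of all libraries in DKO replicate 1 (83, 128 and 79.9 normalized counts). Csf1r (62) and Lyz2 (377) were lowest there. Summed neutrophil markers (12) ran from 2360 to 3080 CPM in WT and from 123 to 1040 in DKO. Mesenchyme markers (11) ran from 49.2 to 138 CPM in WT and from 302 to 1060 in DKO. Mpo had by far the most counts of the neutrophil list, with means of 108147 normalized counts in WT and 22998 in DKO. Of the 9 neutrophil genes tested, 5 were called lower, against the same 2.43% of all genes, and S100a8 and S100a9 had higher means in DKO. Vsig4, Ly6g and Ncr1 were at 0 counts in every library. The other lists overlapped between the groups, with 1320 to 2270 in WT and 982 to 2590 in DKO for erythroid genes (11), 1260 to 1470 and 933 to 2710 for megakaryocyte genes (8), 15800 to 21500 and 4760 to 18200 for hepatoblast genes (13), 339 to 364 and 222 to 367 for endothelial genes (11), and 196 to 227 and 206 to 346 for dendritic and lymphoid genes (12), a list that holds the ISG Bst2. In that last list Bst2 rose from a mean of 2127 normalized counts in WT to 9115 in DKO. Of the 10 dendritic and lymphoid genes tested, 4 were called lower, against 2.43% of all genes. The 2 genes Bst2 and Xcr1 were called higher (log2 fold change above 1), against 6.19% of all genes. In bulk samples fewer cells of a type and less RNA per cell cannot be told apart. The part of these markers in the results below was not tested.

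Most of the antiviral effectors were higher in DKO S0 cells. Of the 9 members with enough counts to be tested, 7 were called higher (adjusted p under 0.05 and log2 fold change above 1), namely Ifit1, Rsad2, Rtp4, Isg20, Lgals3bp, Samd9l and Cmpk2, and none was called lower. Over all 17378 genes tested, 6.19% were called higher and 2.43% lower. In 8 of the 9 tested members every DKO library lay above every WT library, which held for 13.5% of all genes. The exception was Ifit2. DESeq2 called 9 of the 10 members higher, against 1665 of 20449 genes. With no threshold on fold change 7 members remained called by edgeR, against 1867 of 17378 genes called higher. The median log2 fold change of the 9 members was 2.53, against 0.03 over all genes tested, and it was 2.66 with Ifit3b added at its lower bound. Ifit3 passed the filter on low counts only through the DKO libraries. The study itself picked 6 of the members (Ifit1, Rsad2, Rtp4, Isg20, Samd9l and Lgals3bp) on these samples, so that their direction is not independent evidence. Of the other 4, only Cmpk2 was called.

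**Figure D1:**
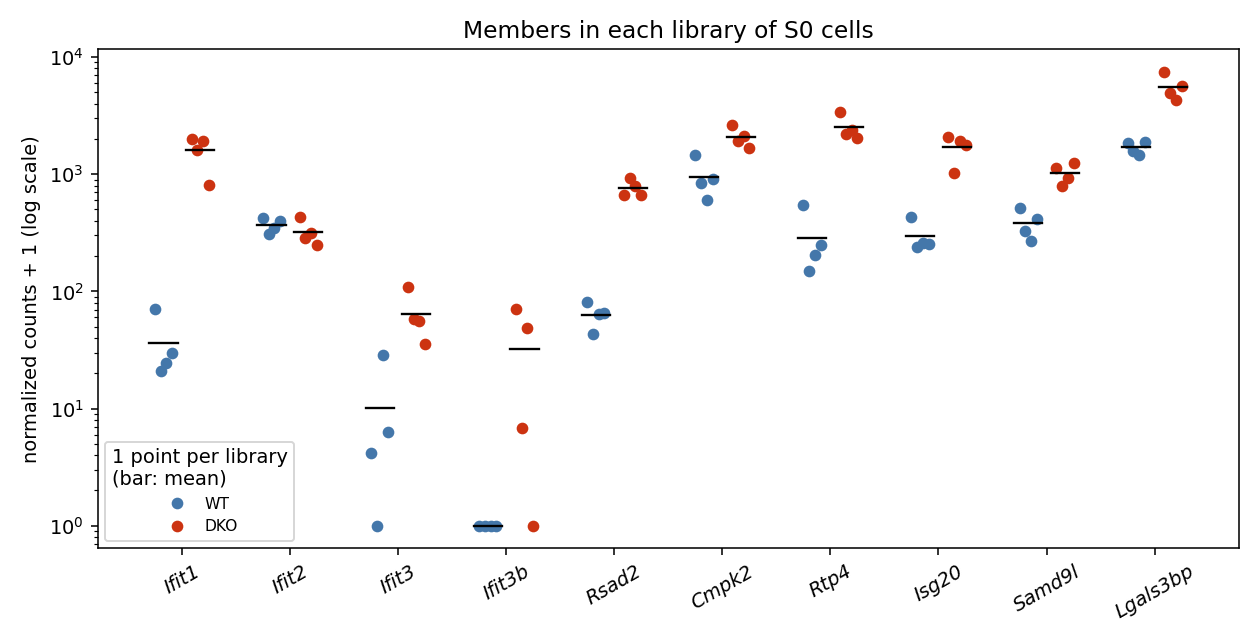
Normalized counts of the 10 members plus 1, on a log axis, with 1 point per library (WT blue, DKO red, replicates 1 to 4 from left to right) and a bar at the mean of 4. Ifit2 overlaps between the groups at 250 to 428 normalized counts, while Ifit1 runs from 19.8 to 70.2 in WT and from 815 to 2010 in DKO.

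Ifit1 showed the largest fold change of the members tested. This gene (chr19:34640871-34650009, plus strand, GRCm38, ENSMUSG00000034459.8) encodes a protein that binds RNA caps lacking the methyl mark of host mRNA. WT replicates 1 to 4 had 70.2, 19.8, 23.5 and 28.9 normalized counts, and DKO replicates 1 to 4 had 2010, 1618, 1927 and 815. The groups were far apart, with DKO replicate 4 the lowest of its group and WT replicate 1 the highest of its own. Its mean rose from 35.6 ± 23.4 to 1592 ± 545 (SD, n = 4 each), a 45.2-fold change and a log2 fold change of 5.50 ± 0.47 (SE, edgeR adjusted p = 0.000343). In WT it exceeded 20.3% of the genes tested and in DKO 69.2%.

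Ifit2, the first gene of the same cluster (chr19:34550694-34576419, plus strand) and the source of a partner protein of the other IFITs, did not follow. WT replicates 1 to 4 had 420, 306, 347 and 400 normalized counts and DKO replicates 428, 285, 316 and 250. The ranges overlapped and the highest value of all was in a DKO library. The log2 fold change was -0.20 ± 0.22 (SE, 95% confidence interval -0.70 to 0.30, edgeR adjusted p = 0.553), an interval that lies wholly below the threshold of 1 for a call. The exact two-sided permutation test of its log2 CPM gave p = 0.314 (n = 4 each).

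Ifit3 and Ifit3b are near copies in the same cluster, and both were scarce. For Ifit3 (chr19:34583531-34588731, plus strand) the WT libraries gave 3.14, 0, 27.8 and 5.25 normalized counts and the DKO libraries 108, 57, 54.9 and 34.5, so that the groups did not overlap but WT replicate 3 came close. The log2 fold change of 2.79 ± 1.03 (SE) had a 95% interval of 0.49 to 5.09 and was not called (edgeR adjusted p = 0.0811). Without WT replicate 3 it was 4.45 (edgeR adjusted p = 0.022). Ifit3b (chr19:34607970-34613401, plus strand) was at 0 in all 4 WT libraries and at 70.4, 5.81, 47.6 and 0 in DKO. These rest on 67, 5, 39 and 0 counts, too few for the filter, and DKO replicate 4 was at 0 as in WT. Its exact two-sided permutation p was 0.143 (n = 4 each). Against a floor of 3 counts in each WT library the DKO mean was at least 11.3-fold higher, a bound that covers counting error only. The transcripts of Ifit3 shared 18.5% of their stretches of 150 bases with Ifit3b, and Ifit3b shared 16% of its own with Ifit3, so the division of reads between the copies is uncertain. The ratio of Ifit3 to Ifit3b counts in DKO replicates 1 to 3 was 1.54, 9.8 and 1.15. With both copies summed the log2 fold change was 3.36 (edgeR adjusted p = 0.0492), which was called. DESeq2 called Ifit3 (log2 fold change 2.80, adjusted p = 0.0232) and Ifit3b (adjusted p = 0.00147). The further IFIT copies of the cluster, Ifit1bl1 and Ifit1bl2, did not exceed 20 and 14 counts in any library and were not tested.

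Counts of Ifit1 and Ifit2 can also be set against each other inside a library, a restatement of the values above that no scaling enters. Counts of Ifit1 were between 0.0648 and 0.167 of those of Ifit2 in WT and between 3.26 and 6.09 times those of Ifit2 in DKO. The mean log2 ratio was -3.55 ± 0.65 in WT against 2.26 ± 0.40 in DKO (SD, n = 4 each), given without a test because the pair was chosen after its values were seen. On the low-coordinate side of the cluster Lipa, a lysosomal lipase, changed by -0.63 on the log2 scale (edgeR adjusted p = 0.00768), short of a call, and on the other side Slc16a12, a transporter, was called lower at -1.05 (edgeR adjusted p = 0.0352).

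The promoters of the cluster are shown because its genes differed in response. Sequences are from RefSeq on GRCm38.p6, 5′ to 3′ on the gene's own strand, from 200 to 21 bases before the annotated start. Capitals mark the ISRE core searched for on both strands (GAAA, any 2 bases, GAAA), which here reads as its reverse complement. They lie at chr19:34640689-34640868 for Ifit1, chr19:34583329-34583508 for Ifit3, chr19:34607757-34607936 for Ifit3b and chr19:34550494-34550673 for the first of the 2 starts of Ifit2.
Ifit1: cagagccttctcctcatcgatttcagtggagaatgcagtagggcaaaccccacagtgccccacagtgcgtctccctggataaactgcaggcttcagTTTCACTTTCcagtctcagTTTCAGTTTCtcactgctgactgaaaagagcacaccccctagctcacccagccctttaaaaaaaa
Ifit3: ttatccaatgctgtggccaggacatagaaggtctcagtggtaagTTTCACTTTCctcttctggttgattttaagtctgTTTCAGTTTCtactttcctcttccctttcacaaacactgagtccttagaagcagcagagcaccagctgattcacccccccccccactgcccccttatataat
Ifit3b: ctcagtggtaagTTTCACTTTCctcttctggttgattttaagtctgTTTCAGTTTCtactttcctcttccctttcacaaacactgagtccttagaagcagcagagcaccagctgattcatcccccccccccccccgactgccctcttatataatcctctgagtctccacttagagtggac
Ifit2: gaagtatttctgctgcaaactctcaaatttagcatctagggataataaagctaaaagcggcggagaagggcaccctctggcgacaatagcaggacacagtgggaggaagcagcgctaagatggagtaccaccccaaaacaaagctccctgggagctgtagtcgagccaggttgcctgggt
Ifit1 held 2 cores, beginning 104 and 85 bases before the start, Ifit3 held 2, beginning 156 and 122 bases before it, and Ifit3b held 2, beginning 188 and 154 bases before it. The windows of Ifit3 and Ifit3b, 300 bases each, aligned with 259 identical bases (86.3%). Neither window of Ifit2 held these letters. The cores of Ifit1 also lie in the window of Ifit1bl2, a gene on the opposite strand that stayed under the filter. A match is a description of the letters, and its absence says nothing on which factors bind.

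Rsad2 and Cmpk2 are neighbours on chromosome 12 and lie head to head. Rsad2 (chr12:26442746-26456452, minus strand) encodes viperin, which makes a chain-terminating nucleotide from CTP, and Cmpk2 (chr12:26469204-26479837, plus strand) encodes a mitochondrial nucleotide kinase that can supply CTP. For Rsad2 the WT libraries gave 79.6, 42.2, 63.4 and 63.8 normalized counts and the DKO libraries 662, 929, 787 and 669. Its groups were well apart and its DKO libraries varied least of all members, with a coefficient of variation of 16.5%. The mean rose from 62.2 ± 15.4 to 762 ± 125 (SD, n = 4 each), 12.2-fold (log2 3.61 ± 0.25 SE, edgeR adjusted p = 0.000105). Cmpk2 stood at 1464, 833, 607 and 914 in WT replicates and at 2632, 1921, 2137 and 1663 in DKO replicates. Its lowest DKO library was only 1.14 times its highest WT library. The mean rose from 955 ± 364 to 2088 ± 411 (SD, n = 4 each), 2.19-fold (log2 1.13 ± 0.25 SE, edgeR adjusted p = 0.0144). Its call was lost without WT replicate 3, where it changed by 0.96 on the log2 scale (edgeR adjusted p = 0.0272). The call of Cmpk2 was also lost with a term for sex (log2 1.16), a fit whose genotype effect rests on DKO replicate 3 alone. Counts of Rsad2 were between 0.0506 and 0.104 of those of Cmpk2 in WT and between 0.251 and 0.483 of them in DKO, again without a test. Rnf144a, the nearest tested coding gene on the Rsad2 side, was at 0.70 (log2, edgeR adjusted p = 0.137).

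**Figure D2:**
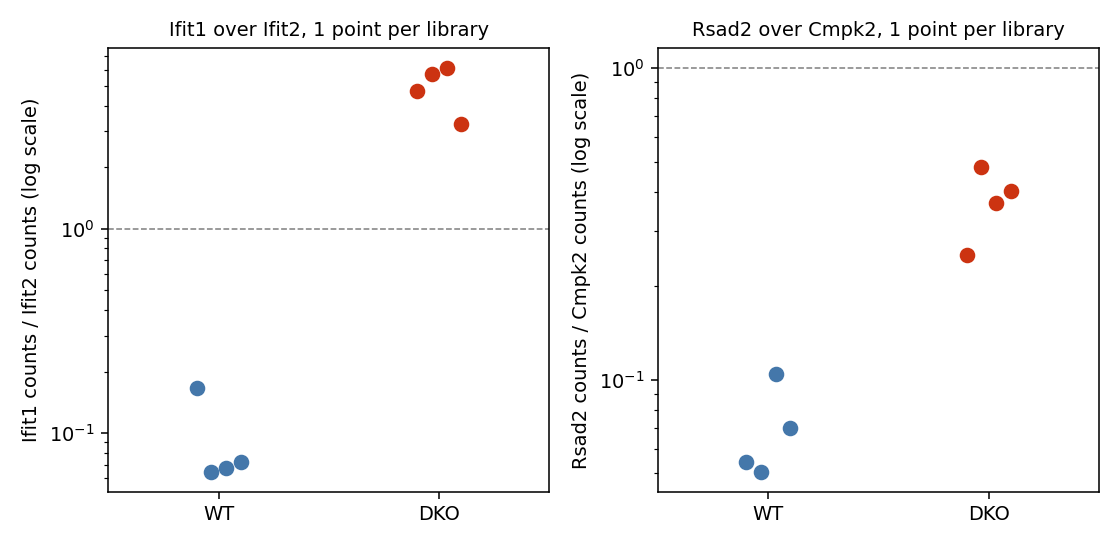
Counts of Ifit1 over Ifit2 and of Rsad2 over Cmpk2 in the same library, on log axes, with 1 point per library and a dashed line at equal counts. Ifit1 runs from at most 0.167 of Ifit2 in WT to at least 3.26 times Ifit2 in DKO, while Rsad2 stays below Cmpk2 in all 8 libraries.

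The promoter of Rsad2 is shown for its single ISRE core, beginning 120 bases before the start, in the stretch chr12:26456473-26456652 of the minus strand, again from 200 to 21 bases before the start.
Rsad2: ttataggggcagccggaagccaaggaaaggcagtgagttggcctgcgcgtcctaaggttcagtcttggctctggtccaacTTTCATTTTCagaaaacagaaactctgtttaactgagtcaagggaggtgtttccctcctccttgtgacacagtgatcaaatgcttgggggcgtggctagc
The window of Cmpk2 held none. RefSeq windows of 300 bases, from 250 before to 50 after a start, were found for 9 of the 10 members (12 windows) and not for Rtp4. The ISRE core was in 4 of these 9 members, Ifit1, Ifit3, Ifit3b and Rsad2, and in 3.99% of the 27025 genes with a window (3.44% of 32851 windows). Of the 5 members without it, Cmpk2, Isg20, Samd9l and Lgals3bp were called higher and Ifit2 was not. The GAS core (TTC, any 3 bases, GAA) was in 2 members, Ifit2 and Isg20, and in 9.55% of all genes with a window (8.3% of windows). The TATA box letters (TATAAA) were in 1 member, Rsad2, on the strand opposite to the gene, and in 15.7% of genes (13.6% of windows).

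**Figure D3:**
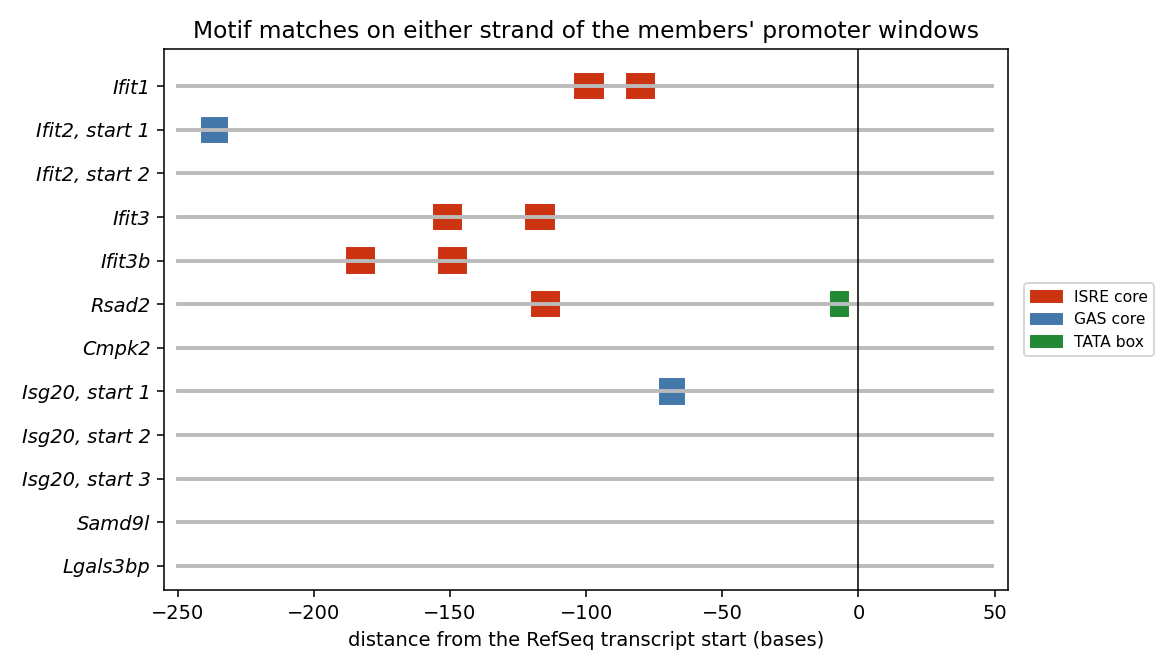
Positions of the ISRE core, GAS core and TATA box letters, on either strand, in the 12 promoter windows of 9 members, by distance in bases from the RefSeq start at 0. The ISRE core lies between 188 and 76 bases before the start in Ifit1, Ifit3, Ifit3b and Rsad2.

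Rtp4, Isg20, Samd9l and Lgals3bp lie on separate chromosomes and were all called higher. Rtp4 (chr16:23520291-23614222, plus strand), a chaperone of receptors that also binds replicating viral RNA, gave 548, 149, 202 and 249 normalized counts in the WT libraries and 3411, 2206, 2389 and 2039 in the DKO libraries. The groups were apart, although WT replicate 1 stood above its group. The mean rose from 287 ± 179 to 2511 ± 617 (SD, n = 4 each), 8.77-fold (log2 3.13 ± 0.39 SE, edgeR adjusted p = 0.00208). Its span overlaps Gm45338 on the same strand (44.8 against 65.1 mean normalized counts in WT and DKO) and Masp1 on the other strand (431 against 188), and whether counting used strand is not given in the sources used here.

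Isg20 (chr7:78913424-78920396, plus strand), an exonuclease acting on single-stranded RNA, was at 431, 238, 256 and 252 normalized counts in the WT libraries and at 2060, 1026, 1912 and 1783 in the DKO libraries. WT replicate 1 was far above the other 3, and DKO replicate 2 was the lowest of its group. Its mean rose from 294 ± 91.8 to 1695 ± 460 (SD, n = 4 each), 5.77-fold (log2 2.53 ± 0.27 SE, edgeR adjusted p = 0.00115). Aen, a relative of Isg20 that lies 2214 bases away, was at -0.35 (log2, edgeR adjusted p = 0.138).

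Samd9l (chr6:3372257-3399572, minus strand), a restrictor of translation in infected cells and of blood cell growth, gave 512, 327, 268 and 414 normalized counts in the WT libraries and 1132, 792, 934 and 1252 in the DKO libraries. All DKO libraries were above all WT libraries. Its mean rose from 380 ± 106 to 1027 ± 205 (SD, n = 4 each), 2.70-fold (log2 1.43 ± 0.23 SE, edgeR adjusted p = 0.00471). That call was lost with a term for sex (log2 1.296), a fit whose genotype effect rests on DKO replicate 3 alone. Lgals3bp (chr11:118392751-118402092, minus strand), a secreted glycoprotein that binds galectins, was at 1863, 1590, 1448 and 1886 in the WT libraries and at 7430, 4923, 4269 and 5665 in the DKO libraries. It was the most abundant member in both genotypes. The mean rose from 1697 ± 213 to 5572 ± 1364 (SD, n = 4 each), 3.28-fold (log2 1.72 ± 0.17 SE, edgeR adjusted p = 0.000838). Cant1, which lies 4196 bases from it, was at -0.46 (log2, edgeR adjusted p = 0.0224) and was not called.

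Each of these 4 and of Ifit1, Rsad2, Cmpk2 and Ifit3 had an exact two-sided permutation p of 0.0286 on log2 CPM (n = 4 each), the smallest possible. For Ifit3, which passed the filter on low counts only through the DKO libraries, this separation is partly built in. DKO replicate 3 shares the sex of the WT libraries. For these 8 members its place above the WT libraries is already given by the separation of the groups, and adds no check on sex. With a term for sex in the fit, the genotype effect rests on DKO replicate 3 alone, so that it adds no check either. The log2 fold changes were then 5.78 for Ifit1, 3.66 for Rsad2, 3.06 for Rtp4, 2.70 for Isg20 and 1.33 for Lgals3bp. For Ifit3 the value was 2.58 and for Ifit2 -0.22.

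**Figure D4:**
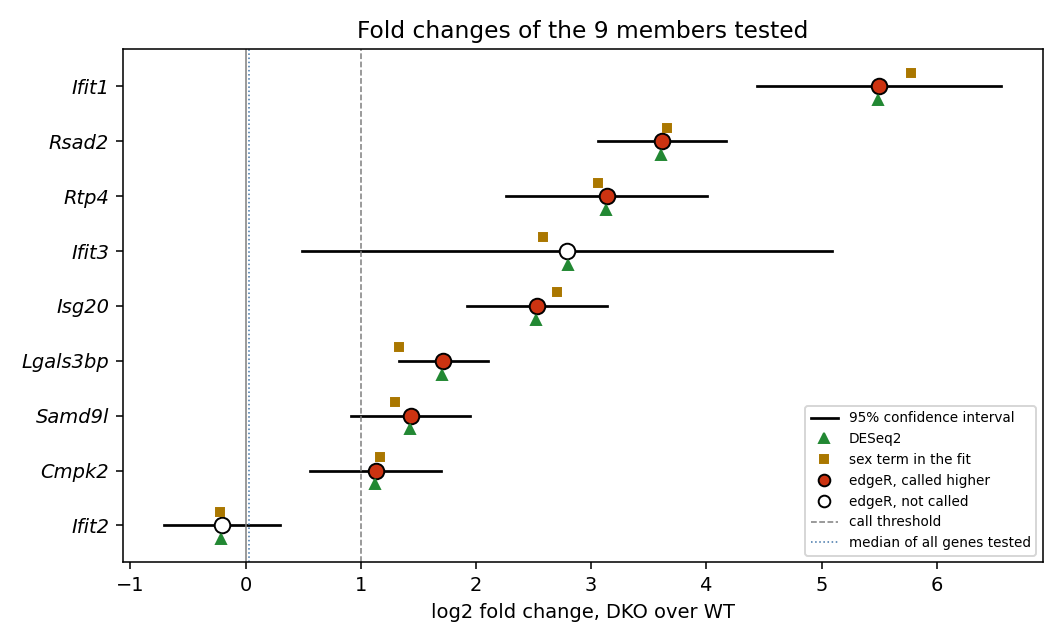
Log2 fold change of DKO over WT for the 9 members tested, with 95% confidence intervals from edgeR and, as small marks, the values from DESeq2 and from a fit with a term for sex. The values run from -0.20 for Ifit2 to 5.50 for Ifit1, and only the intervals of Ifit1, Rsad2, Rtp4, Isg20 and Lgals3bp lie wholly above the call threshold of 1.

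The order of the members by level per length changed between the genotypes. On the RPKM scale, which divides normalized counts by exon length, Lgals3bp stood at 13.6 ± 1.71 in WT (SD, n = 4), above every library of the next. Cmpk2 (5.22), Isg20 (3.60), Rtp4 (3.07), Ifit2 (2.14) and Samd9l (1.60) followed, each overlapping the next over the 4 libraries. Below a gap came Rsad2 (0.327), Ifit1 (0.305), Ifit3 (0.118) and Ifit3b (0), each again overlapping the next. In DKO the order was Lgals3bp (44.6), Rtp4 (26.8), Isg20 (20.8), Ifit1 (13.7) and Cmpk2 (11.4). Of these, neighbours overlapped, and Cmpk2 was above every library of Samd9l (4.31). Samd9l overlapped Rsad2 (4.0), which was above Ifit2 (1.85), and Ifit2 was above Ifit3 (0.831). Ifit1 thus moved from place 8 of 10 to place 4, and Ifit2 from place 5 to place 8.

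**Figure D5:**
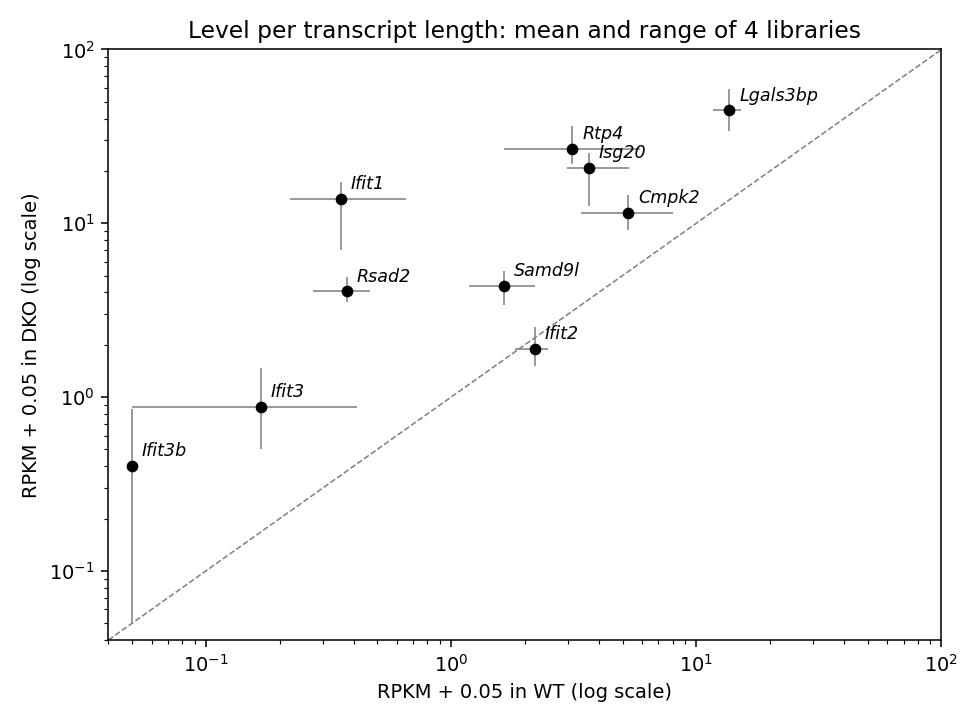
Mean RPKM plus 0.05 of each member in WT and DKO, on log axes, with lines from the lowest to the highest of 4 libraries and a dashed line at equal levels. The mean of Ifit2 lies just below the line of equal levels and its ranges cross it, and Ifit1 lies farthest above it among the members tested, at 0.305 in WT and 13.7 in DKO.

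The members were not equally high in every library of a genotype. Their summed level was 123, 79.8, 73.9 and 96.0 CPM in WT replicates 1 to 4 and 454, 313, 336 and 323 in DKO. DKO replicate 1 was the highest of its group for 8 of the 10 members, against 32.5% of all genes tested, and DKO replicate 4 the lowest for 6, and WT replicate 1 was the highest of its group for 8. DKO replicate 1 also had the highest sum of mesenchyme markers (1060 CPM) and the lowest of neutrophil markers (123), and the part of these cells in the members' levels was not tested. Without it the same count of 7 members was called. Among the 45 pairs of members, the correlation of log2 CPM within genotype over 8 libraries had a median of 0.423, from -0.346 for Ifit3 with Samd9l to 0.882 for Ifit1 with Rtp4, and the pairs share depth and library.

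The gene whose level within genotype was most like the members' mean over the 8 libraries was Isg15, a ubiquitin-like modifier (Pearson r = 0.986), which went from a WT mean of 79.3 normalized counts to a DKO mean of 2984 (log2 5.24, edgeR adjusted p = 0.000346). Next came Cnbd2 (0.975), Dsel (0.965) and Irf7 (0.958), each called higher. The other 6 of the first 10, Mtmr2, Rab3a, U2surp, Gm10143, Tns1 and Mdc1, with r from 0.953 to 0.939, were not called. Over the 12787 genes compared, the median r was -0.002 and the 95th percentile was 0.645. These are descriptions over 8 libraries that share depth.

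Of 90 other ISGs, 86 were tested and 32 were called higher (37.2%) against 6.19% of all genes, and 3 were called lower, against 2.43% of all genes. Their median log2 fold change was 0.91, also with Ifi44, at 0 in WT, set at its lower bound. Of the 86, 47 had every DKO library above every WT library, against 13.5% of all genes tested. For genes that passed the filter only through the DKO libraries, such as Ifi44, this separation is partly built in. Another 9 had every DKO library below, for which the share of all genes was not counted. The list was written with earlier results known, and the study chose several of its genes on these samples. The 3 called lower were Ifi203 (-1.64, edgeR adjusted p = 0.02), Aim2 (-1.38, 0.0335), a sensor of DNA in the cytosol, and Tnfsf10 (-2.10, 0.00458), a ligand of death receptors, named after their values were seen.

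Of the ligands, none of 12 interferon genes passed the filter on low counts. For 8 of them all libraries were at 0, which allows up to 3 counts each, Ifnb1, Ifna1 and Ifna2 each had counts in 1 DKO library (14, 4 and 2) and 0 in the others, and Ifnk did not exceed 17. Both receptor subunits were lower without passing the fold threshold, Ifnar1 from 2077 to 1400 normalized counts (log2 -0.57, edgeR adjusted p = 0.0238) and Ifnar2 from 3328 to 2329 (-0.52, 0.0121). Among the transcription factors of the pathway, Irf9 (0.97, edgeR adjusted p = 0.0052) fell short of the fold threshold, Stat2 (-0.14, 0.508) and Irf3 (0.01, 0.97) did not pass the test, and Irf7 was called higher (3.34, 0.00531). Of all 36 genes of ligands, receptors, kinases and regulators, 23 were tested, with a median of -0.43, against 0.03 over all genes tested. Of the 23, 4 (17.4%) were called higher, against 6.19% of all genes, and 2 lower, against 2.43%. The 4 called higher were Irf7, the negative regulators Socs1 (1.42) and Socs3 (1.55), and Usp18 (2.38), which removes ISG15 from proteins, and the 2 called lower were Irf5 (-1.01) and Tmem173 (-1.01), the adaptor STING, the last 5 named after their values were seen.

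Relatives of the members, galectins and neighbouring genes moved in both directions. A list of 8 genes held relatives of Rtp4 and Isg20, and galectins, which Lgals3bp binds, and 6 were tested. Lgals3, a galectin, was called higher (1.36, edgeR adjusted p = 0.0348) and Rtp3 lower (-1.25, 0.0317). The median of the 6 was -0.05, against 0.03 over all genes. The 11 nearest tested coding genes on either side had a median of -0.35, and 2 of them, Sox11 and Timp2, were called higher and Slc16a12 lower, against 6.19% and 2.43% of all genes.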

How the data were processed

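RNAseq of S0 cells from fetal liver was compared between 4 WT and 4 DKO libraries, grouped by the sample labels. Per the methods and processing notes, the authors trimmed reads with fastp 0.21.0, aligned them to mm10 with HISAT2 2.2.1, dropped alignments of low mapping quality, and used StringTie 1.3.3b with prepDE to count per gene. They deposited raw counts, whole numbers derived from coverage, so totals can differ from reads, and pairs that map equally well to near copies are lost or split. No deposited column was left unmapped.

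From the counts, genes were filtered with filterByExpr, scaled by TMM and compared with the robust quasi-likelihood test of edgeR 4.0.16 (R 4.3.3) with Benjamini-Hochberg adjustment over 17378 genes. A gene was called at an adjusted p under 0.05 and an absolute log2 fold change above 1. Normalized counts are counts over the effective library size times its mean. Log2 CPM used a prior count of 2. Single genes were also compared by an exact permutation test over 70 arrangements. Coordinates are GENCODE M21 on GRCm38, the build of mm10, and promoters RefSeq. Of the 12 windows, 10 had the bases after their start in a transcript of the gene. The genes most like the members were the 10 with the highest r to the members' mean of centred and scaled log2 CPM, among genes with at least 50 normalized counts in each genotype. All members were named, neighbours were the nearest tested coding genes, and from other lists interferons, receptors, Stat2 and IRFs. The values of 1 other gene of the pathway are not reported here. The fit was tested on simulated data. Members and lists were chosen with earlier results of these data known. Alternatives were DESeq2 1.42.0, other scalings and filters, counts divided by 2, no fold threshold, a replicate block, a sex term, each library left out, and the sum of Ifit3 and Ifit3b. The 2 ratios and the bound for Ifit3b were added after the data were seen. Ifit3 and Ifit3b rest on the fewest counts.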

Additional observations from a re-analysis of the deposited data

Results flagged for a closer look

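Isg20 in WT replicate 1 stood apart from the rest of its group, at 431 normalized counts against 238 to 256 in the other 3 WT libraries, a gap of 0.903 of the group's range. It was the only such library among 19 groups of 4 with any spread, and chance gives about 1 in 20. The same library was the highest of the WT group for 8 of the 10 members and for 54 of the 86 other ISGs tested (62.8%), against 22.1% of all genes tested. With it left out, 7 members were called as before.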

How the results depend on the processing

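Of 144 values of single members under the alternatives, 137 kept their direction and their side of the call, 3 lost the call, 4 gained it and none reversed. The 3 lost were Cmpk2 (sex term, and without WT replicate 3) and Samd9l (sex term), and the 4 gained were all Ifit3 (DESeq2, counts divided by 2 with log2 2.73, adjusted p = 0.0454, without WT replicate 3, and copies summed). Ifit3b, not tested in the main comparison, was called by DESeq2 and, with no low-count filter, by edgeR (adjusted p = 0.0481). With the sex term the genotype effect rests on DKO replicate 3 alone, and its counts of calls are left out here. Members called higher ranged from 7 to 9 (DESeq2) in the other settings and stayed at 7 with each library left out. Other ISGs called higher ranged from 26 to 43 in these settings. Genes called higher over the whole table, 1076 here, numbered 1665 by DESeq2, 273 with a sex term, 1867 with no fold threshold, and 566 (without WT replicate 1) to 1148 with a library left out, with 650 without WT replicate 2 and 633 without WT replicate 4. Genes called lower, 423 here, numbered 1878 with no fold threshold and 243 (without WT replicate 4) to 521 with a library left out, with 258 without WT replicate 1 and 260 without WT replicate 2. No fold threshold admits smaller changes by construction, and otherwise the cause was not tested. With a replicate block 613 genes were called higher and 7 members as before. Libraries with the same number did not deviate together (correlations -0.102, 0.0535, -0.0276 and -0.00717), so the numbers do not pair them. Upper-quartile scaling moved the median of all genes to 0.14 on the log2 scale and that of the members to 2.64. Sex, litter and genotype overlap in this design, and Ifit3 and Ifit3b have the fewest counts, with a wide spread between libraries.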
